A study of Rattus norvegicus with 8 samples.

Results

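The miR-17-92 cluster and its paralogous clusters were followed in small RNA libraries made from exosomes, vesicles shed by cells, of rat intervertebral disc. The members were chosen by name: 10 rat mature miRNAs, of which 9 had a row in the deposited table and together took 12 of its 1512 rows (9 of 1273 features once rows of 1 mature name were summed). The nucleus pulposus is the soft core of the disc, and 4 libraries of its progenitor cells' exosomes (NPPC) were set against 4 libraries of exosomes from its cells (NPC). The labels name the tissue and the cell type and number the libraries 1 to 4 in each group. They state no strain, age, genotype, treatment or passage. Separate animals or cultures are not named either, so p-values here measure only library-to-library spread, part of which may be technical.

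A miRNA is a short RNA that guides silencing proteins to messenger RNAs, chiefly through its seed, bases 2 to 8 of the mature strand. The miR-17-92 cluster is a single transcript that holds several hairpins, is switched on by Myc and E2F factors, and is known for promoting proliferation and restraining apoptosis. In mouse its loss impairs heart, lung and B cell development, and in human its deletion causes a skeletal form of Feingold syndrome. Its paralogs are a cluster on the X chromosome and a cluster in an intron of Mcm7, which encodes a subunit of the replicative helicase.

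The members fall into 4 seed groups, and their sequences are printed because members of a group differ by few bases, so that counts of near-identical members can be hard to split. They are the RefSeq mature sequences of the rat assembly GRCr8, written 5′ to 3′ with the seed in capitals.
rno-miR-17-5p: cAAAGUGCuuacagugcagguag
rno-miR-20a-5p: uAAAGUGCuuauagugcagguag
rno-miR-20b-5p: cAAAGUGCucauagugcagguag
rno-miR-93-5p: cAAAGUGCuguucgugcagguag
rno-miR-106b-5p: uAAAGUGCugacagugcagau
rno-miR-18a-5p: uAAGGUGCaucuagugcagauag
rno-miR-19a-3p: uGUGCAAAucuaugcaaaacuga
rno-miR-19b-3p: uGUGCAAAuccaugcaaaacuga
rno-miR-92a-3p: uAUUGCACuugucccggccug
rno-miR-25-3p: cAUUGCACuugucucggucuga

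The first 5 share the seed AAAGUGC (the miR-17 seed), miR-18a-5p has AAGGUGC, the miR-19 pair has GUGCAAA and the last pair has AUUGCAC (the miR-92 seed). Counted from 1 at the 5′ end and with the base of the first-named miRNA first, miR-17-5p and miR-20a-5p differ at C1U and C12U, miR-19a-3p and miR-19b-3p at U11C alone, and miR-17-5p and miR-20b-5p at U10C and C12U. No read length or mismatch setting of the counting is given in the sources used here, so the division of reads among these members is uncertain. The deposited row of miR-18a-5p is 2 bases shorter at the 3′ end than the RefSeq sequence. For miR-92a-3p, between 94.9% and 97.0% of the counts in NPPC libraries and between 95.7% and 97.7% in NPC libraries lay on a form with 1 further base.
miR-92a-3p, longer deposited form: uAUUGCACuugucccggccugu

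In GRCr8 the chromosome 15 cluster spans bases 98587861 to 98588622 on the plus strand, from miR-17-5p to miR-92a-3p, with 6 hairpins. The X cluster spans bases 137342788 to 137343637 on the minus strand with 5 hairpins, and the third cluster spans bases 22156652 to 22157123 of chromosome 12 on the minus strand, inside Mcm7, with 3 hairpins. Because miR-17-5p, miR-19b-3p and miR-92a-3p are made by hairpins on both chromosome 15 and X with identical letters, their counts cannot be assigned to either cluster. All 6 mature strands of the chromosome 12 cluster had a row, against 9 of 12 for the chromosome 15 cluster. The X cluster had rows for 3 of 10, the 3 mature strands it shares with chromosome 15. miR-20b-5p, the member that only the X cluster makes, had no row.

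**Figure D1:**
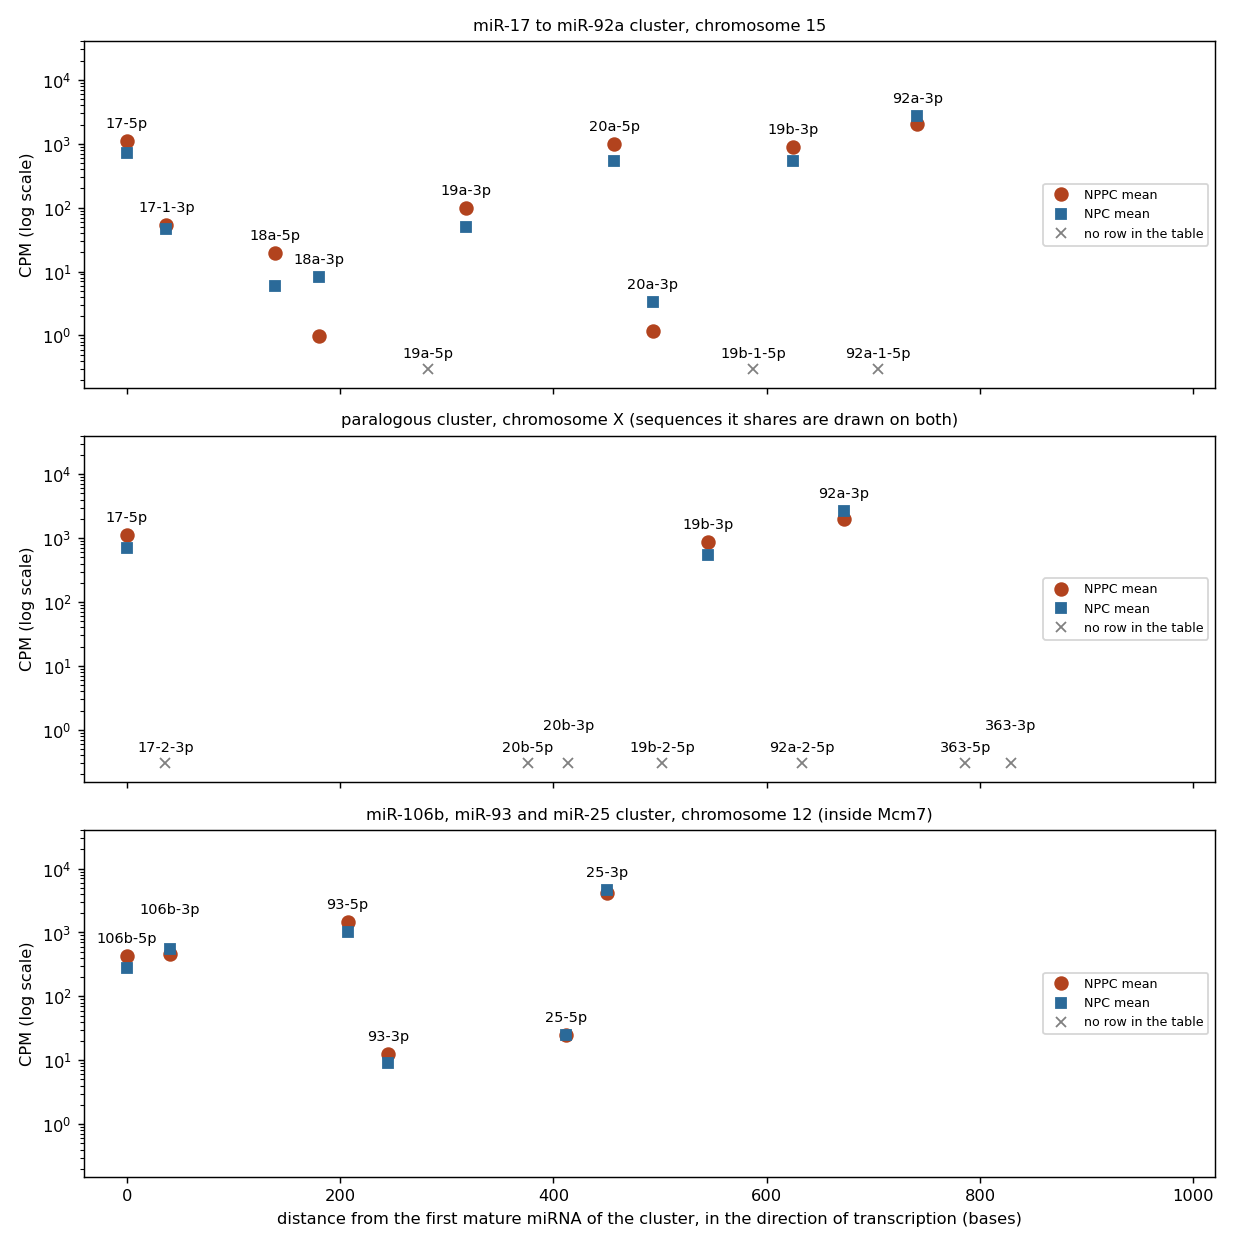
Mean CPM on a log axis, over 4 NPPC libraries (circles) and 4 NPC libraries (squares), of each mature miRNA against its distance in bases from the first mature miRNA of its cluster. Crosses mark mature strands with no row, and the 3 sequences that chromosome X shares with chromosome 15 are drawn on both, with the same values. miR-25-3p is the highest point in both groups.

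NPPC libraries were the deeper ones, with 819845 to 1416940 counts, against 329011 to 681591 counts in NPC libraries. NPC replicate 1 was the shallowest and stood apart from the other libraries. It had a TMM scaling factor of 1.64, against 0.872 to 1.01 in the other 7 libraries, so results are also given without it. The labelled tissue was checked with 8 miRNAs of mesenchyme and cartilage, all present, whose summed level was 138572 to 152418 CPM (counts scaled to a common library size with TMM factors) in NPPC libraries and 123937 to 168543 CPM in NPC libraries. Most of it was miR-199a-3p (29210 to 89020 CPM) and miR-199a-5p (60060 to 73560 CPM). The cartilage strand miR-140-3p stood at 6739 to 7579 CPM in NPPC libraries and 9755 to 15170 CPM in NPC libraries. Its log2 fold change was -0.66, and that of miR-140-5p 0.27. Summed levels of 4 erythrocyte miRNAs were 198 to 1412 CPM in NPPC libraries and 372 to 581 CPM in NPC libraries, and those of 5 leukocyte miRNAs were 403 to 508 CPM in NPPC libraries and 33.4 to 469 CPM in NPC libraries. The 2 endothelial miRNAs summed to 460 to 678 CPM in NPPC libraries and 277 to 754 CPM in NPC libraries, and 3 miRNAs of liver and serum summed to 1927 to 2957 CPM in NPPC libraries and 2386 to 4434 CPM in NPC libraries. Of the latter, miR-423-5p held 1754 to 4245 CPM and miR-122-5p 9.28 to 32.0 CPM. Log2 fold changes were 1.29 for miR-451-5p, -0.54 for miR-486, -0.088 for miR-144-3p and 0.098 for miR-144-5p. They were 1.38 for miR-155-5p, 0.022 for miR-223-3p, -0.44 for miR-142-5p and -0.27 for miR-150-5p. No marker was at 0 in every library and none of those tested was called. The leukocyte miRNA miR-142-3p, at 0 in 4 libraries, did not pass the filter. The row used for miR-223-3p carries a mouse name. The part of these cells in the results was not tested.

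Together the 9 members made up 1.00% to 1.06% of all counts in NPPC libraries, against 0.899% to 0.995% in NPC replicates 2 to 4 and 1.84% in NPC replicate 1. On the TMM scale their summed level was 11127 ± 897 CPM in NPPC libraries and 10475 ± 513 CPM in NPC libraries (SD, n = 4 each), and the groups overlapped. No member passed an adjusted p of 0.05 in edgeR's quasi-likelihood test with Benjamini-Hochberg adjustment over 390 features. Across all tested features 0.256% passed (1 feature). The adjusted p of the members ran from 0.314 to 0.596.

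Of the 9 members, 7 had a log2 fold change above 0, where 48.7% of all tested features did. Their median log2 fold change (NPPC over NPC) was 0.65, beside -0.038 over all tested features. Only 278 of the tested features were rat features, and the share above 0 was not taken over those alone. Most of the other tested features lay below 0, so the share among rat features is higher than 48.7%. With rat names only in the fit, the members' median was 0.545, beside 0.074 over the features of that fit. In the main fit, 3 members reached an unadjusted p under 0.05 with higher values in NPPC exosomes, against 4.10% of all tested features. They were miR-17-5p, miR-93-5p and miR-106b-5p. That level was reached with lower values by 0 members, against 6.41% of all tested features. With rat names only, 2 members reached it with higher values (miR-17-5p and miR-106b-5p), beside 4.66% of the features of that fit. With the replicate numbers as a block, 1 of 9 members reached it (miR-17-5p, unadjusted p = 0.0136), beside 12.3% of all features in either direction, and no feature was called at the adjusted threshold. With a library left out, it was reached with higher values by 1 member (miR-17-5p) without NPPC replicate 2, 3 or 4 or without NPC replicate 2 or 4, beside 1.5% to 4.28% of all features, and by 2 members without NPPC replicate 1, beside 4.63%. Without NPC replicate 1 it was 5 members higher and 0 lower, beside 8.90% and 11.2% of all features. Without NPC replicate 3 it was 5 members higher, 1 of them miR-18a-5p with every remaining NPC library at 0, beside 7.46% of all features, and 1 lower (miR-92a-3p), beside 7.69%. Every NPPC value exceeded every NPC value for 3 members (miR-106b-5p, miR-19a-3p and miR-19b-3p), against 6.15% of all tested features, and all below for 0 members, against 4.62%. The filter on low counts kept all 9, of which miR-18a-5p reached the filter's 13.3 CPM in 3 NPPC and 1 NPC libraries.

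**Figure D2:**
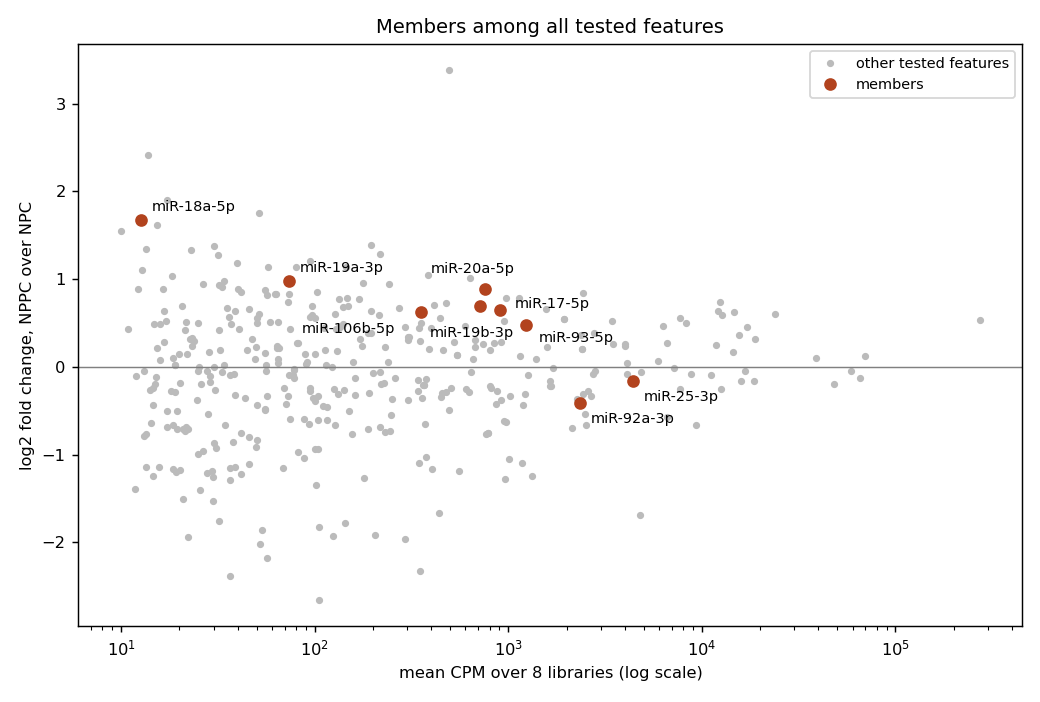
Log2 fold change (NPPC over NPC) against mean CPM over 8 libraries on a log axis for the 390 tested features, with the 9 members as large labelled points. The 7 members of the miR-17, miR-18 and miR-19 seeds lie above 0, and miR-25-3p and miR-92a-3p, the 2 members with the highest mean, lie below it.

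rno-miR-17-5p, the first hairpin product of the cluster and a repressor of the cell cycle inhibitor Cdkn1a, stood at 853, 1099.7, 1264 and 1220.1 CPM in NPPC exosomes, against 616, 683, 882 and 642 CPM in NPC exosomes. The groups overlapped by 1 pair, since NPPC replicate 1 was below NPC replicate 3. The means were 1109 ± 184 CPM in NPPC exosomes and 706 ± 121 CPM in NPC exosomes (SD, n = 4 each). In edgeR's test the log2 fold change was 0.65 ± 0.20 (SE), the unadjusted p was 0.0103 and the adjusted p 0.314. The 23 alternatives gave 0.41 to 0.85, with adjusted p from 0.0786 to 0.745. Without NPC replicate 1 it was 0.60.

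rno-miR-20a-5p, which shares its transcript and seed with miR-17-5p, stood at 671, 894, 1126 and 1255 CPM in NPPC exosomes, against 42.7, 578, 1010 and 510 CPM in NPC exosomes. The low value is NPC replicate 1, which held 23 counts of it. Of the other NPC libraries, replicate 3 lay within the NPPC range and replicates 2 and 4 below it. The log2 fold change was 0.88 ± 0.71 (SE; edgeR adjusted p = 0.596). It was 0.51 without NPC replicate 1 and 1.46 without NPC replicate 3, 1.38 with the replicate block and 1.5 with limma-voom, within 0.29 to 1.5 over the alternatives.

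miR-93-5p and miR-106b-5p are the miR-17 seed members of the chromosome 12 cluster and in human cells repress Cdkn1a and components of TGF-beta signalling. rno-miR-93-5p stood at 1075, 1385, 1624 and 1657 CPM in NPPC exosomes, against 1003, 949, 1298 and 884 CPM in NPC exosomes. NPPC replicate 1 again lay within the NPC range. Its log2 fold change was 0.47 ± 0.20 (SE; edgeR unadjusted p = 0.0473, adjusted p = 0.458).

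rno-miR-106b-5p stood at 466, 436, 383 and 434 CPM in NPPC exosomes, against 150, 317, 335 and 308 CPM in NPC exosomes. Every NPPC value exceeded every NPC value, with or without NPC replicate 1. The log2 fold change was 0.63 ± 0.27 (SE; edgeR unadjusted p = 0.0465, adjusted p = 0.458). Without NPC replicate 1 it was 0.44 ± 0.13 (SE; edgeR unadjusted p = 0.00920, adjusted p = 0.140, in a range from 0.140 to 0.832 over the alternatives), and with a correction for the GC content of each sequence it was 0.18.

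rno-miR-18a-5p, the single member with its seed and known in mouse colonocytes to repress the matrix protein gene Ccn2, was the scarcest. Its deposited counts were 7, 16, 43 and 22 in NPPC exosomes, against 0, 0, 14 and 0 in NPC exosomes. It was listed in all NPPC libraries and in NPC replicate 3 alone among NPC libraries, which were the shallower ones. Of 5153 sequence sums above 0 in the table, 110 were under 5, so a 0 may stand for a few unlisted reads. The log2 fold change was 1.67 ± 1.33 (SE; edgeR adjusted p = 0.596). It was 3.01 with the replicate block and 3.24 with limma-voom (unadjusted p = 0.0252, adjusted p = 0.308, in a range from 0.308 to 0.810 over the alternatives that gave one). Without NPC replicate 3 every remaining NPC library was at 0, and no fold is given.

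The miR-19 pair carries much of the tumour-promoting activity of the cluster in mouse lymphoma. rno-miR-19a-3p stood at 97.6, 91.7, 84.6 and 116 CPM in NPPC exosomes, against 0, 67.7, 55.6 and 75.0 CPM in NPC exosomes, where NPC replicate 1 was listed at 0. The groups did not overlap, and the log2 fold change was 0.97 ± 0.84 (SE; edgeR adjusted p = 0.596), 1.33 with the replicate block, 2.01 with limma-voom and 0.57 ± 0.21 without NPC replicate 1 (edgeR unadjusted p = 0.0236, adjusted p = 0.174, in a range from 0.174 to 0.810 over the alternatives).

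rno-miR-19b-3p stood in NPPC exosomes at 903, 814, 875 and 935 CPM, against 221, 688, 734 and 540 CPM in NPC exosomes. The groups did not overlap. The log2 fold change was 0.69 ± 0.34 (SE; edgeR adjusted p = 0.458), or 0.44 without NPC replicate 1, and with the GC correction over all 8 libraries it turned to -0.044.

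The miR-92 seed members had negative log2 fold changes. rno-miR-92a-3p, known in endothelial cells to repress the integrin gene Itga5, stood at 1736, 2140.2, 2224 and 1951 CPM in NPPC exosomes, against 3654, 2369, 1801 and 2878 CPM in NPC exosomes. NPC replicate 1 was the highest and NPC replicate 3 lay within the NPPC range. Its log2 fold change was -0.41 ± 0.23 (SE; edgeR unadjusted p = 0.107, adjusted p = 0.504), -0.21 without NPC replicate 1, and 0.090 where the GC correction was also applied.

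rno-miR-25-3p, a repressor of the pro-apoptotic gene Bcl2l11, was the most abundant member, at 4104, 4118, 4292 and 4107 CPM in NPPC exosomes, against 5541, 4420.2, 4179.7 and 4445 CPM in NPC exosomes. NPC replicate 3 lay within the NPPC range. The log2 fold change was -0.16 ± 0.14 (SE; edgeR adjusted p = 0.596), -0.054 without NPC replicate 1, and 0.044 where the GC correction was also applied.

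**Figure D3:**
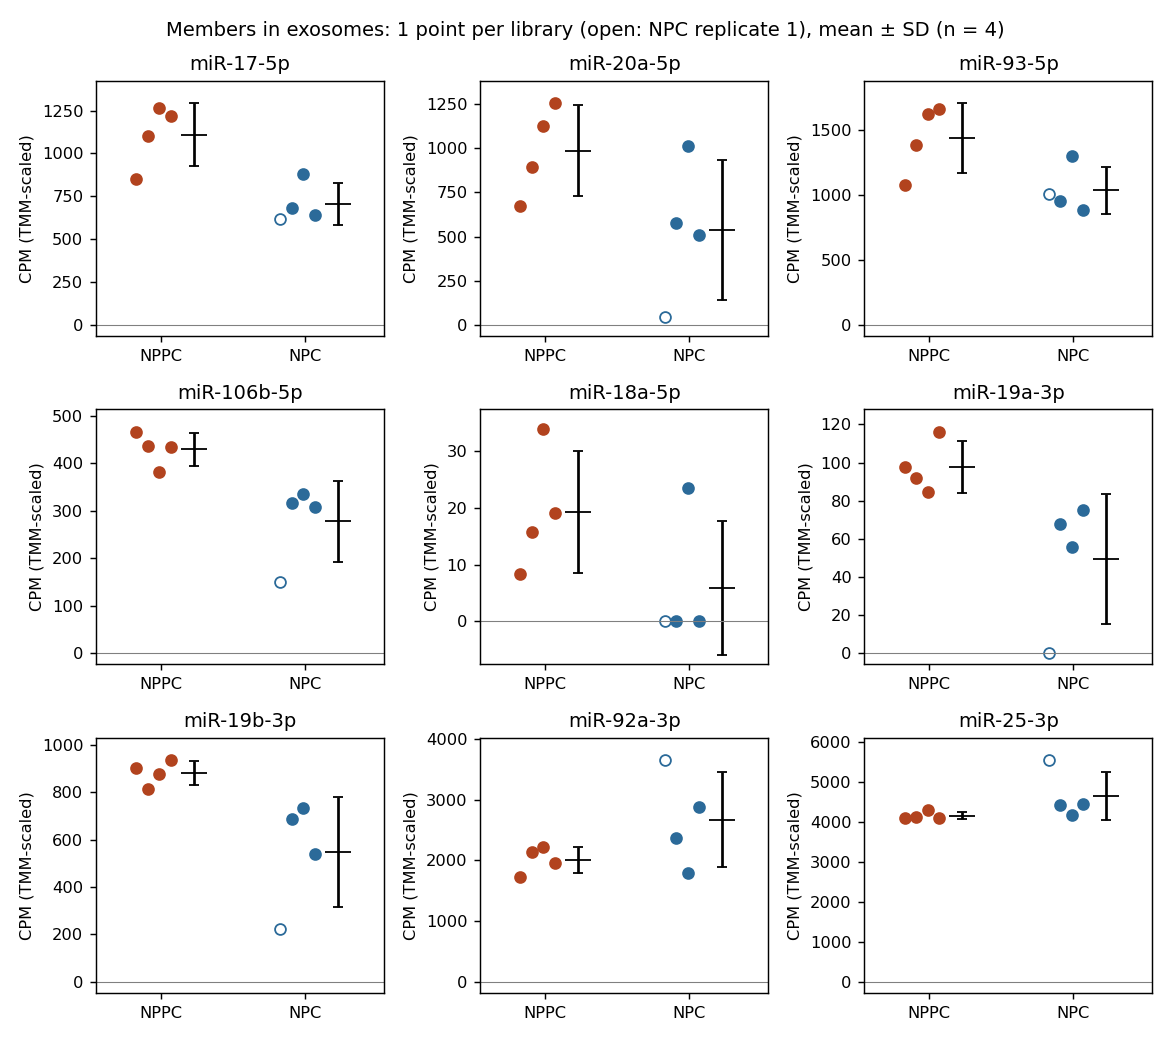
TMM-scaled CPM of each member in each library, with 1 point per library, NPPC left of NPC, the mean and the SD (n = 4 each) beside the points and NPC replicate 1 as an open circle. NPC replicate 1 is the lowest NPC library for miR-17-5p, miR-20a-5p, miR-106b-5p, miR-19a-3p and miR-19b-3p, and the highest of all libraries for miR-92a-3p and miR-25-3p.

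NPC replicate 1 lay below the other NPC libraries for the members with low GC content, or tied with others at 0 for miR-18a-5p. The members' GC content was 34.8% for miR-19a-3p, 39.1% for miR-20a-5p and miR-19b-3p, 42.9% for miR-106b-5p and the deposited miR-18a-5p, and 47.8% for miR-17-5p. It was 50% for miR-25-3p, 52.2% for miR-93-5p and 54.5% for the longer form of miR-92a-3p, the members for which NPC replicate 1 was not the lowest NPC library. The part of GC content in the differences was not tested beyond the fits with the correction.

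**Figure D4:**
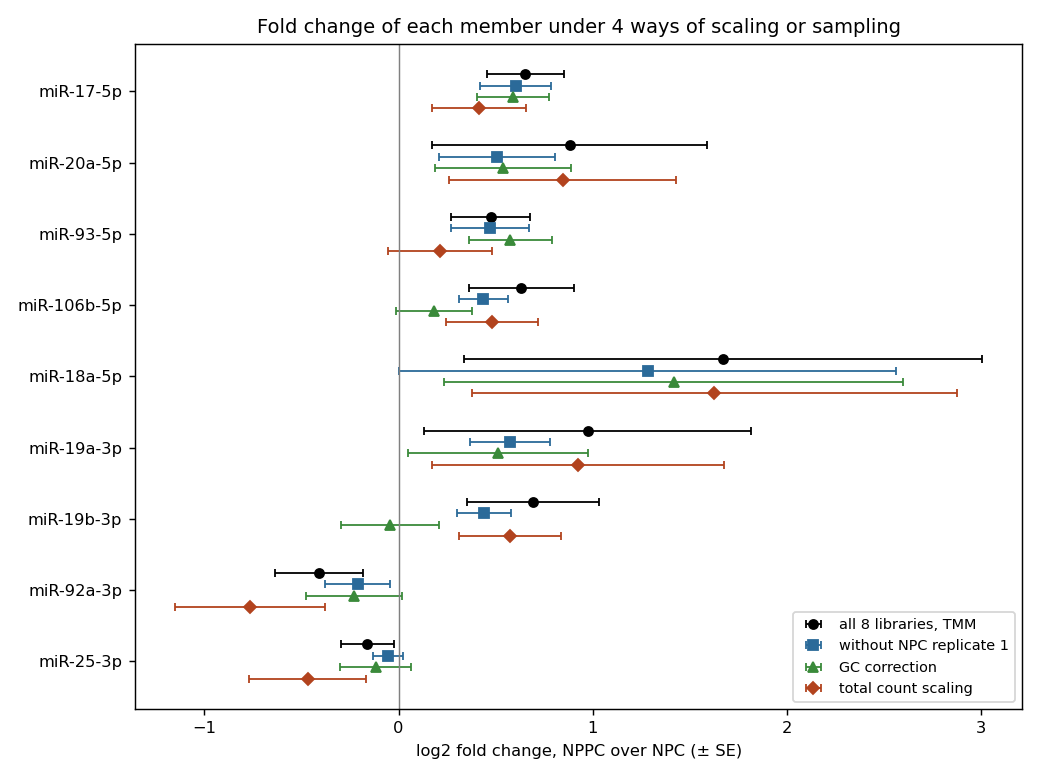
Log2 fold change (NPPC over NPC) of each member, over all 8 libraries with TMM scaling, with NPC replicate 1 left out, with the GC correction and with total count scaling, each with its SE. miR-17-5p, at 0.65 with TMM scaling, stays above 0 in all 4, and miR-92a-3p, at -0.41, stays below 0 in all 4.

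Summed by seed, the miR-17 seed held 3961 ± 678 CPM in NPPC exosomes and 2552 ± 716 CPM in NPC exosomes (SD, n = 4 each), a log2 ratio of 0.63, or 0.50 without NPC replicate 1. The miR-19 seed held 979 ± 61.7 CPM in NPPC exosomes and 595 ± 261 CPM in NPC exosomes, a log2 ratio of 0.72, or 0.44 without NPC replicate 1. The miR-92 seed held 6168 ± 288 CPM in NPPC exosomes and 7322 ± 1365 CPM in NPC exosomes, a log2 ratio of -0.25, or -0.12 without NPC replicate 1. These sums are descriptions and carry no test.

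The balance between seeds within a library needs no scaling between libraries, but it carries no correction for GC content. Counts of the miR-17 seed per count of the miR-92 seed were 0.525, 0.609, 0.675 and 0.754 in NPPC exosomes, against 0.197, 0.372, 0.589 and 0.320 in NPC exosomes. The lowest NPPC library and NPC replicate 3 overlapped. Counts of the miR-19 seed per count of the miR-92 seed were 0.171, 0.145, 0.147 and 0.173 in NPPC exosomes, against 0.0240, 0.111, 0.132 and 0.0840 in NPC exosomes, without overlap. The GC content was 34.8% and 39.1% for the miR-19 pair, 50% for miR-25-3p and 54.5% for miR-92a-3p. With the GC correction the log2 ratio of summed CPM was -0.0013 for the miR-19 seed, 0.53 for the miR-17 seed and -0.16 for the miR-92 seed. Of the members' own counts, the miR-92 seed took 51.8% to 58.9% in NPPC exosomes and 58.0% to 81.9% in NPC exosomes.

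By cluster the sums of the groups overlapped. The chromosome 12 cluster held 6020 ± 292 CPM in NPPC exosomes and 5957 ± 496 CPM in NPC exosomes. The 3 sequences made on both chromosome 15 and X held 4003 ± 367 CPM in NPPC exosomes and 3927 ± 459 CPM in NPC exosomes. The 3 made on chromosome 15 alone (miR-18a-5p, miR-19a-3p and miR-20a-5p) held 1103 ± 270 CPM in NPPC exosomes and 590 ± 429 CPM in NPC exosomes (SD, n = 4 each). Total count scaling, which lowers the median of all features by over 0.1, turned the log2 ratio of the chromosome 12 sum from 0.015 to -0.28, that of the sequences on both chromosomes from 0.028 to -0.28 and that of all members from 0.087 to -0.20. Products of 1 cluster had values in both directions, since miR-106b-5p and miR-93-5p lay above 0 on the log2 scale and miR-25-3p below it. In bulk libraries like these, fewer cells or vesicles of a type and less RNA in each cannot be told apart.

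By mean CPM the members of NPPC exosomes ran miR-25-3p, miR-92a-3p, miR-93-5p, miR-17-5p, miR-20a-5p, miR-19b-3p, miR-106b-5p, miR-19a-3p and miR-18a-5p. Neighbours from miR-93-5p to miR-19b-3p overlapped over the 4 libraries, and the others did not. The order in NPC exosomes was the same except that miR-19b-3p (546 ± 232 CPM) and miR-20a-5p (535 ± 396 CPM) changed places, well within their spread (SD, n = 4 each). Levels of different miRNAs also carry the ligation and amplification of each sequence, which these files do not measure.

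Of 19 other mature strands listed for these clusters, 6 had a row and 4 passed the filter. None was called and 0 had an unadjusted p under 0.05. Their log2 fold changes were -0.24 for miR-106b-3p, 0.23 for miR-17-1-3p, 0.43 for miR-93-3p and -0.0042 for miR-25-5p, with edgeR adjusted p of 0.596 or above. miR-18a-3p was listed in NPPC replicate 3 and NPC replicate 2 alone, and miR-20a-3p in NPPC replicate 3 and NPC replicate 4 alone.

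The ratio of the arms of the Mir106b hairpin was higher in every NPPC library than in any NPC library. The 3′ arm is shown because its log2 fold change has the opposite sign to that of its partner.
miR-106b-3p: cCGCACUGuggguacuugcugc
Counts of miR-106b-5p per count of miR-106b-3p were 0.987, 0.967, 0.826 and 0.928 in NPPC exosomes, against 0.235, 0.60, 0.569 and 0.717 in NPC exosomes. NPC replicate 1 was the lowest. The mean log2 difference was 0.92, and the exact permutation test, two-sided, gave p = 0.0286, the smallest that 70 arrangements can give, and 0.0857 after Benjamini-Hochberg adjustment over the 3 hairpins with both arms tested. Without NPC replicate 1 it was 0.56, with an exact permutation p of 0.0571, the smallest that 35 arrangements can give. Within pairs of the same replicate number the ratio was higher in NPPC exosomes in 4 of 4 pairs, with an exact permutation p of 0.125, the smallest that 16 sign arrangements can give. The arms differ in GC content, 42.9% for miR-106b-5p and 63.6% for miR-106b-3p. With the GC correction their log2 fold changes were 0.18 and 0.17, and with the replicate block as well 0.18 and 0.18. With the GC correction and without NPC replicate 1 they were 0.26 and 0.42. The arm ratio carries no GC correction, and the part of GC content in it was not tested. The comparison of arms was chosen after the values had been seen. The Mir25 and Mir17 hairpins gave exact permutation p of 0.457 and 0.343, with mean log2 differences of -0.28 and 0.38, and their ranges overlapped.

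**Figure D5:**
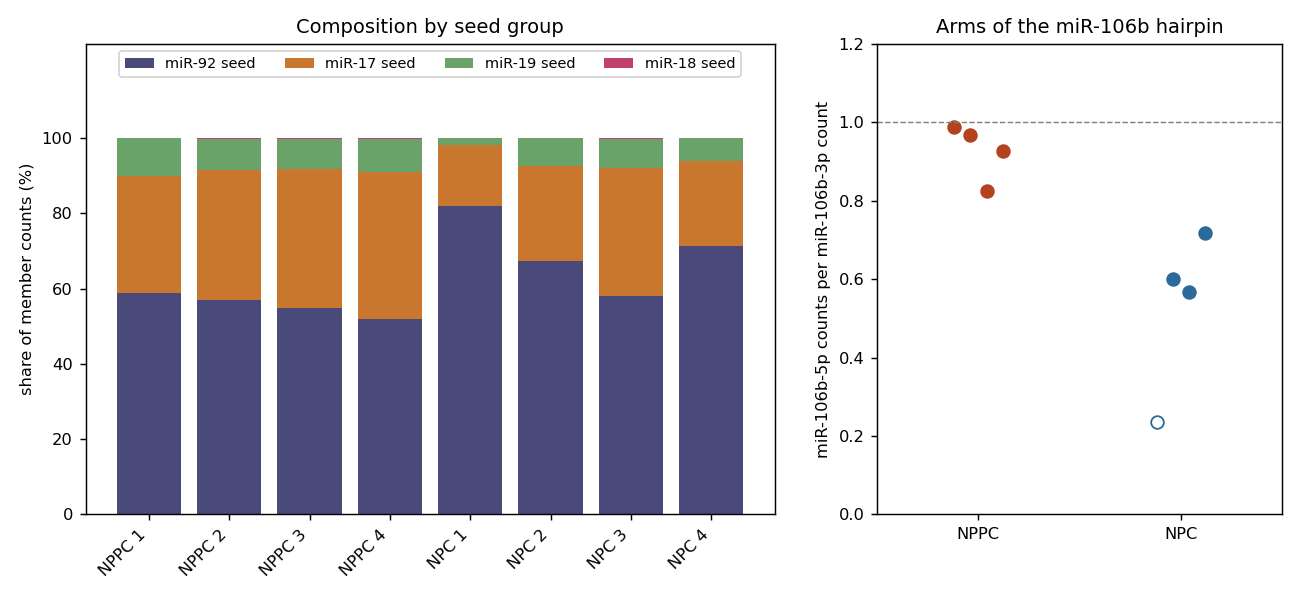
Share of the members' counts by seed group in each library, in percent, and counts of miR-106b-5p per count of miR-106b-3p in each library, NPPC left of NPC. The miR-92 seed takes 81.9% in NPC replicate 1, and all 4 NPPC arm ratios, 0.826 to 0.987, lie above all NPC ratios. The counts carry no GC correction.

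Outside the clusters, 2 of 3 listed relatives with the miR-92 seed had a row. miR-92b-3p had a log2 fold change of -0.71 ± 0.71 (SE; edgeR adjusted p = 0.652). miR-32-5p did not pass the filter, with deposited counts of 17, 5, 5 and 11 in NPPC exosomes, against 0 in each of the 4 shallower NPC libraries. Rows outside the members held at most 0.981% of the counts with the miR-92 seed, and no other row carried the miR-17, miR-18 or miR-19 seed.

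Among 264 other rat features, those nearest to miR-17-5p by the root mean square difference of centred log2 CPM over the 8 libraries were miR-16-5p (0.128), miR-23b-3p (0.176) and let-7b-5p (0.190). Their GC contents were 45.45%, 47.83% and 45.45%, beside 47.8% for miR-17-5p. The member miR-93-5p lay at 0.117 from it and miR-20a-5p at 1.21. Nearest to miR-92a-3p were miR-328a-3p (0.16), miR-149-5p (0.174) and miR-423-3p (0.192), whose GC contents were 68.2%, 60.9% and 65.2%. The member miR-25-3p lay at 0.223 from it.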

How the data were processed

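Small RNA was sequenced from 4 NPPC and 4 NPC exosome libraries of rat, isolated with an exosome RNA kit and prepared with a TruSeq small RNA kit, per the labels' protocols. The submitters' processing notes name CASAVA 1.8. The aligner and the miRBase release, like the genome build, are steps not given in the sources used here. For each miRNA row the authors deposited an estimated count (82.3% of 5804 values above 0 were whole within 1e-09). Their scaled signal, also deposited, was that count multiplied by a factor per library.

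Rows were summed per mature name within a species prefix, rounded to whole numbers and fitted with edgeR 4.0.16 in R 4.3.3 (TMM factors, filterByExpr, two-sided quasi-likelihood test on group, Benjamini-Hochberg adjustment over 390 features). The SE of a log2 fold change was its size divided by the square root of F. Python 3.11.15 with scipy 1.17.1 gave exact permutation tests of arm ratios. Alternatives used DESeq2 1.42.0, limma 3.58.1, other scalings and filters, a loess GC offset, thinned libraries, a replicate block and each library left out; the authors' scaling, arm ratios (with an exact test within pairs) and 2 settings without NPC replicate 1 were added after the data were seen. The fit was tested on simulated data with known changes. With all 8 libraries it called 37% of 2-fold changes, 79.3% of 4-fold changes and 1 unchanged feature, so changes of the members' size are often missed. The simulation changed 200 features, and the percentages leave out those that failed its filter (358 features passed). So many changes ease the Benjamini-Hochberg adjustment, so a lower share would be called where few features change. Library totals lay between 329011 and 1416940, so low counts are imprecise, and no 2 libraries of a group agreed within sampling noise.

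Replicate numbers come from the titles. The deviations of same-numbered libraries from their group means correlated at 0.116 to 0.565, above 0.1 in 4 of 4 pairs. NPPC replicate 2 correlated better with NPC replicate 3 (0.265) and NPC replicate 4 (0.355) than with NPC replicate 2 (0.116). Likewise, NPPC replicate 4 correlated better with NPC replicate 3 (0.332) and NPC replicate 2 (0.277) than with NPC replicate 4 (0.243). Results with the numbers as a block or as pairs are given beside the main fit, which did not pair the libraries. The labels do not say what a number stands for.

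The members, the other lists and the rule for named miRNAs (all members, every other mature strand and seed relative with a row, and the 3 nearest features of miR-17-5p and of miR-92a-3p) were chosen with earlier results of these data known.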

Additional observations from a re-analysis of the deposited data

Results flagged for a closer look

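In 9 of 55 groups examined, 1 library lay far from the 3 others by Dixon's test, which chance does in about 1 of 20 for independent measured values. The groups overlap, since sums and shares contain the members, and some hold mostly zeros. The 9 of 55 can therefore not be set against that rate. NPC replicate 1 accounted for 3. It held 150.4 CPM of miR-106b-5p (other NPC libraries 308 to 335 CPM), 6694 CPM summed over the chromosome 12 cluster (others 5637 to 5813 CPM) and a member share of 1.838% of all counts (others 0.899% to 0.995%). NPPC replicate 3 held 4292 CPM of miR-25-3p, where the other NPPC libraries held 4104 to 4118 CPM. The other flagged values are each the single library of a group in which a scarce strand was listed, the others being at 0. Dixon's test flags any such group, whatever the value. They were 23.57 CPM of miR-18a-5p in NPC replicate 3, 3.952 CPM of miR-18a-3p in NPPC replicate 3 and 33.01 CPM in NPC replicate 2, and 4.743 CPM of miR-20a-3p in NPPC replicate 3 and 13.46 CPM in NPC replicate 4.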

How the results depend on the processing

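No member was called in any of 24 settings, where miR-18a-5p had no test with thinned libraries and no adjusted p from DESeq2. The number of features called was 1 and became 0 with rows as deposited, 8 without a filter, 6 with DESeq2's Wald test, 0 with the replicate block, 2 with the block and GC correction, and 0 to 1 with a library left out (1 without NPC replicate 1, 0 without any other). Features at an unadjusted p under 0.05 numbered 41, and 103 without a filter, 82 with the GC correction and 88 with total count scaling, both without NPC replicate 1, and 23 to 86 with a library left out (23 without NPPC replicate 3 or 4, 65 without NPC replicate 3, 86 without NPC replicate 1). Members at that level numbered 3, and 0 with total count scaling, 1 with thinned libraries, 5 without a filter, 5 with limma-voom, 1 with the replicate block, 5 with total count scaling without NPC replicate 1, and 1 to 6 with a library left out.

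Log2 ratios of the sums over the chromosome 12 cluster, the sequences on both chromosome 15 and X, and all members became -0.28, -0.28 and -0.20 under scaling by total count. The log2 ratio of the miR-92 seed sum was -0.57 with total count scaling and 0.059 with the GC correction without NPC replicate 1, and that of the miR-19 seed was -0.0013 with the GC correction. Signs turned for miR-19b-3p (-0.044) and miR-106b-3p (0.17) with the GC correction, and for miR-17-1-3p (-0.11) with total count scaling, which shifts the median of all features to -0.29. With the GC correction without NPC replicate 1 they turned for miR-92a-3p (0.090), miR-25-3p (0.044), miR-92b-3p (0.27) and miR-106b-3p (0.42), and for the last also with the block and GC correction (0.18). The thinned arm difference of Mir17 was -0.058. miR-25-5p, near 0, was 0.064 with the authors' scaling, 0.32 with the GC correction, 0.080 with rows as deposited, 0.10 without a filter, 0.015 at 10 CPM in 4 libraries, 0.086 with limma-voom, 0.11 with the block, 0.45 with the block and GC correction, and 0.93 and 0.42 without NPC replicate 1 with the GC correction and total count scaling, and -0.21 to 0.43 with a library left out. The cause was not tested. Within pairs the arm ratio of Mir106b gave an exact permutation p of 0.125. That is the smallest that 16 sign arrangements can give, so the test could not reach 0.05 and decides nothing. With the replicate block the number of features called went from 1 to 0. Members at an unadjusted p under 0.05 in edgeR's test went from 3 to 1, and no member was called with or without it.

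In the remaining settings each member that gave a fold kept its sign. miR-18a-5p gave none with thinned libraries or without NPC replicate 3. Precision is limited by 4 libraries a group, by shallower NPC libraries, and by scarce strands such as miR-18a-5p.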
